A study of Mus musculus with 9 samples.

Results

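Transcripts of the claudin family were examined in mouse colon: Cldn1, Cldn2, Cldn3, Cldn4, Cldn5, Cldn7, Cldn8, Cldn12, Cldn15 and Cldn23. The members were taken by gene symbol from a deposited table of 21959 genes, and all 10 were found as 1 row each. The table held another 22 claudin symbols, of which 10 had no read in any library. Poly-A RNA sequencing had been done on colon tissue of wild-type mice in 3 groups of 3 libraries. The group CDs received dextran sulfate sodium (DSS), a polymer that injures the colon lining, together with lotus node charcoal carbon dots, which are nanometre-sized carbon particles. The group Model received DSS alone, and the group Blank was untreated. The sources used here do not state doses, timing, age, sex or the stretch of colon sampled, and the series description calls the replicates biological.

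The deposited table places Cldn2 (ENSMUSG00000047230) at chrX:138701577-138712135 on the plus strand and Cldn1 (ENSMUSG00000022512) at chr16:26175392-26190591 on the minus strand. Cldn15 (ENSMUSG00000001739) lies at chr5:136995470-137004712, on the chromosome that also holds Cldn3 (ENSMUSG00000070473), Cldn4 (ENSMUSG00000047501) and Cldn12 (ENSMUSG00000046798). The build of these coordinates is not named, and none of the 10 starts equals that of GRCm38.p6, the build of the promoter sequences.

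Claudins are membrane proteins that join neighbouring epithelial cells at tight junctions and set which ions and small molecules pass between the cells. Some members, such as Cldn2 and Cldn15, form channels for small cations and water, and others, such as Cldn1, Cldn3, Cldn4 and Cldn8, are known mainly for sealing. The mix of members differs between crypt and surface cells and along the gut. Cldn5 belongs to endothelium, where it seals blood vessels.

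Libraries held 13868864 to 19940300 counted reads, and the members had 32 to 5993 reads each in a library. Levels are given as deposited FPKM, which are reads scaled by library total and gene length, so that levels of different genes can be set side by side. All 14 epithelial markers had reads in every library. Their summed level was 3503 to 5889 FPKM in CDs, 2924 to 5209 FPKM in Model and 5634 to 6475 FPKM in Blank. Fewer cells of a type and less RNA per cell cannot be told apart in such bulk samples. Some libraries carried transcripts of other organs. Summed pancreatic acinar markers stood at 270 FPKM in CDs 1, 5786 FPKM in Model 1 and 47146 FPKM in Model 3, against 15.0 to 116 FPKM in the other 6 libraries. In those 6 libraries 5 to 7 of the 11 acinar markers in the table had no read, while none was at 0 in CDs 1, Model 1 and Model 3. Of 10 prostate and seminal vesicle markers, Spink1 was at 108 to 395 FPKM in every library and was set aside after its values were seen. The other 9 summed to 1097 FPKM in Blank 2 and 136 FPKM in Blank 3, against 0.294 to 0.928 FPKM in the other 7 libraries, with 5 to 7 of the 9 at 0 in each library. Probasin, Pbsn, a secretory protein of the prostate, was at 955 FPKM in Blank 2 and 122 FPKM in Blank 3.

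Promoters of 3 members are shown because their transcripts behaved differently after DSS: those of Cldn2 and Cldn15 fell furthest, and Cldn4 had no call. Each window runs from 250 bases before to 50 bases after the annotated start (RefSeq, GRCm38.p6), and RefSeq windows were found for 8 of the 10 members. Capitals mark matches, on either strand, to any of 8 short motifs: the core read by the intestinal CDX factors, TTTAT; the HNF4 motif, CAAAGTCCA; the GATA motif, AGATAA; the AP-1 motif, TGANTCA; the STAT motif, TTCNNNGAA; the E-box read by the repressor Snail, CAGGTG; the TATA box, TATAAA; and the NF-kB motif, given by name alone.
Cldn2, chrX:139800558-139800857, plus strand: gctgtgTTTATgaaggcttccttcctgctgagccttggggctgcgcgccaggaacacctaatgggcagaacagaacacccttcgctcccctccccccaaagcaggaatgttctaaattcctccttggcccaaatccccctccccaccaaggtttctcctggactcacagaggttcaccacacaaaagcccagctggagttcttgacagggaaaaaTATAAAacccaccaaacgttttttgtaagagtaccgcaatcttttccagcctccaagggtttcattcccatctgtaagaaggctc
Cldn15, chr5:136967619-136967918, plus strand: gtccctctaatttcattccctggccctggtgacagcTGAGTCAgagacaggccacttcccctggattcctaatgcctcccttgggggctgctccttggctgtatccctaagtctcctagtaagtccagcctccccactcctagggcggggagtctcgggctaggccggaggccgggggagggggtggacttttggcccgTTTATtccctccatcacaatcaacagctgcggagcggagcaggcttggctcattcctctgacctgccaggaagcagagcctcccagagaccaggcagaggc
Cldn4, chr5:134946885-134947184, minus strand: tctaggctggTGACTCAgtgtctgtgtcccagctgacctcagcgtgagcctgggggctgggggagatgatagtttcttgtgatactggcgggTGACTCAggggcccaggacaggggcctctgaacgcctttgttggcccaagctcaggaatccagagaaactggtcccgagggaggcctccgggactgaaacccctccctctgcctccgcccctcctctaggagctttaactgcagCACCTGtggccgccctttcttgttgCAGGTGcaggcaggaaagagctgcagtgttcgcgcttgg

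The Cldn2 window held the CDX core once upstream and once, read on the opposite strand, within its TATA box, so that these 2 matches overlap. The Cldn15 window held 1 CDX core and 1 AP-1 match, and the Cldn4 window held 2 AP-1 and 2 E-box matches. Among all 32851 RefSeq windows of this length, 40.0% held the CDX core, 20.2% the E-box, 13.6% the TATA box and 11.2% the GATA motif. The STAT motif was held by 8.30%, the AP-1 motif by 7.81%, the NF-kB motif by 1.47% and the HNF4 motif by 0.475%. Of the 8 members with a window, only Cldn2 and Cldn15 held the CDX core, and the Cldn1 and Cldn5 windows held none of the 8 motifs. A match describes these letters and is not evidence of a bound factor.

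In untreated colon Cldn7 was the most abundant member. It averaged 191 ± 12.9 FPKM in Blank, followed by Cldn3 at 141 ± 2.11, Cldn8 at 74.0 ± 21.6, Cldn2 at 59.9 ± 8.20 and Cldn15 at 40.6 ± 9.46 FPKM (SD, n = 3). Cldn4, Cldn12 and Cldn23 averaged 26.1 ± 9.87, 24.0 ± 0.399 and 21.5 ± 2.46 FPKM in Blank, and Cldn5 and Cldn1 were at 3.15 ± 1.04 and 0.702 ± 0.412 FPKM (SD, n = 3). The ranges of Cldn8 and Cldn2 overlapped in Blank, as did those of the neighbours Cldn15 and Cldn4, Cldn4 and Cldn12, and Cldn12 and Cldn23, so their order is not resolved. Cldn7, Cldn3 and Cldn8 remained the top 3 by mean in CDs and in Model, while Cldn2 ranked 9 in CDs, 6 in Model and 4 in Blank. In CDs the ranges of all neighbours in the order other than Cldn7 and Cldn3 overlapped, and in Model all but those of Cldn8 and Cldn4 and of Cldn4 and Cldn12.

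**Figure D1:**
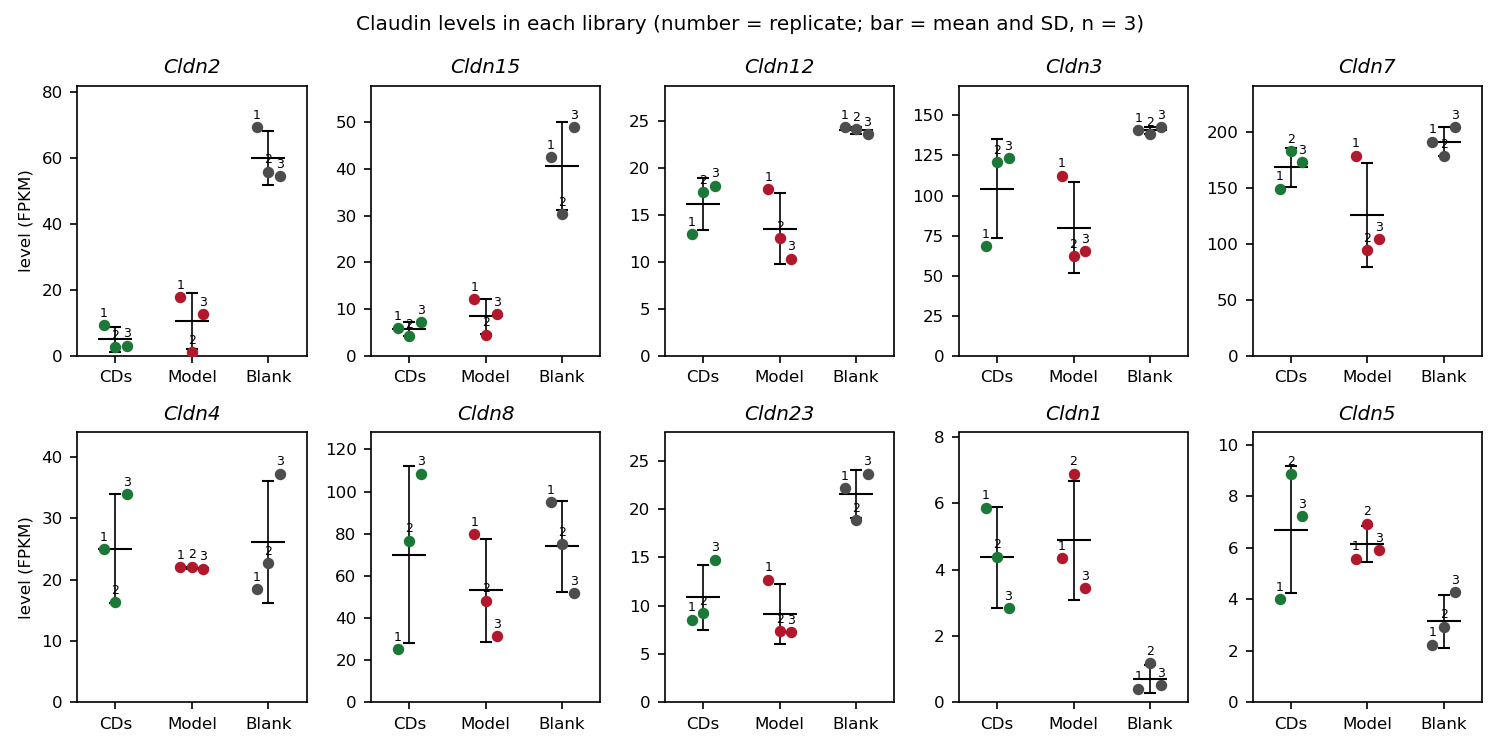
Level of each claudin in each library (y axis, FPKM, linear and starting at 0; x axis, the groups CDs, Model and Blank; points are libraries with their replicate number, bars the mean and SD of 3). Cldn2, Cldn3, Cldn12, Cldn15 and Cldn23 lie lower in all 6 DSS libraries than in Blank, and Cldn1 lies higher.

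The comparison of Model with Blank asks which claudins differed in DSS-treated colon. Of the 10 members 5 fell (Cldn2, Cldn15, Cldn23, Cldn12 and Cldn3), 1 rose (Cldn1) and 4 were not called, edgeR's quasi-likelihood test at an adjusted p under 0.05 being referred to as a call. Over all 14921 genes tested 44.1% were called, 24.5% higher and 19.6% lower, so that DSS-treated colon differed widely and the members' share is to be read beside that. The members' median log2 fold change was -0.76, beside -0.03 over all genes. The FPKM ranges of Model and Blank did not overlap for 7 members, and for 58.7% of all genes. At an unadjusted p under 0.05, 8 members and 53% of all genes passed. Without Blank 2 and Blank 3, the libraries with prostate transcripts, 1 member was called lower (Cldn15) and 1 higher (Cldn1). That fit leaves Blank 1 as the single control library and takes its spread from the other groups, so the smaller count does not show weaker effects.

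Cldn2, a cation and water channel known from crypt cells, fell furthest. It was at 17.7, 1.21 and 12.7 FPKM in Model 1, Model 2 and Model 3, against 69.3, 55.8 and 54.5 FPKM in Blank 1, Blank 2 and Blank 3. The groups were far apart, and Model 2 lay well under the other Model libraries. The log2 fold change was -2.54 ± 0.80 (SE; edgeR adjusted p = 0.0308), and it was -3.14 without Model 1. Without the 3 libraries with pancreatic transcripts, which leaves Model 2 alone, it was -5.76. The call rested on few libraries: edgeR's adjusted p was 0.0723 without Blank 1, 0.0634 without Blank 2, 0.0592 without Blank 3 and 0.0770 without Model 3. Among the DSS libraries Cldn2 was higher in the 3 with acinar transcripts, with no finer order. These libraries had 9.32 (CDs 1), 17.7 (Model 1) and 12.7 FPKM (Model 3) of Cldn2, and the other DSS libraries, CDs 2, CDs 3 and Model 2, had 2.59, 3.08 and 1.21 FPKM. The part of the pancreatic transcripts in these levels was not tested. In Model 2, where 7 of 11 acinar markers had no read, Cldn2 was at its lowest.

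Cldn15, the other cation channel and a major claudin of the small intestine, fell as clearly. It stood at 12.1, 4.58 and 8.88 FPKM in the 3 Model libraries, against 42.5, 30.3 and 49.0 FPKM in Blank. No Model library came near the Blank range. Its log2 fold change was -2.30 ± 0.37 (SE; edgeR adjusted p = 0.00165) and stayed between -2.65 and -1.97 with each library left out, with an edgeR adjusted p of at most 0.00857. Without the pancreatic libraries it was -3.27. Cldn12, a member without the usual cytoplasmic binding motif that is known from mice to act with Cldn2 in calcium passage, fell less. Its level was 17.8, 12.5 and 10.4 FPKM in Model, against a narrow 24.4, 24.1 and 23.6 FPKM in Blank, with a log2 fold change of -0.88 ± 0.21 (SE; by edgeR, adjusted p = 0.0108).

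Of the sealing and less well known members, Cldn23, a claudin of colonic surface cells, fell to 12.7, 7.38 and 7.28 FPKM in Model, against 22.2, 18.8 and 23.6 FPKM in Blank. Its log2 fold change was -1.29 ± 0.29 (SE; edgeR adjusted p = 0.00783). Cldn3, a broadly expressed sealing claudin, was at 112, 62.0 and 65.4 FPKM in Model, against 141, 138 and 143 FPKM in Blank. Model 1 lay between the other Model libraries and Blank. The log2 fold change of Cldn3 was -0.86 ± 0.30 (SE; edgeR adjusted p = 0.0414). That call was lost without Blank 1 (adjusted p = 0.0891), Blank 2 (0.0889), Blank 3 (0.0848), Model 2 (0.129), Model 3 (0.133) or CDs 2 (0.0543), always by edgeR and with log2 fold changes of -0.68 to -0.86.

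Cldn7, whose loss in mice leads to intestinal inflammation, was not called. Its level was 179, 94.2 and 104 FPKM in Model, against 191, 178 and 204 FPKM in Blank, and Model 1 reached the Blank range. The log2 fold change was -0.65 ± 0.24 (SE; edgeR adjusted p = 0.0564), and -1.01 without Model 1 (edgeR adjusted p = 0.00216). Cldn4, which with Cldn3 serves as a receptor for a clostridial enterotoxin, was at 22.0, 22.1 and 21.8 FPKM in Model, against 18.4, 22.7 and 37.2 FPKM in Blank. The Model libraries were nearly equal and lay inside the Blank range. Its log2 fold change was -0.30, with a 95% interval of -0.98 to 0.38, and its sign turned without Blank 3 (0.040). Cldn8, a sealing claudin of the distal colon that limits sodium passage, was at 79.7, 48.3 and 31.4 FPKM in Model, against 94.9, 75.1 and 51.8 FPKM in Blank. These ranges overlapped, and the 95% interval of the log2 fold change ran from -1.73 to 0.66.

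Cldn1, best known for the barrier of the skin, was the only member called higher in Model. It was the least abundant member in untreated colon. It stood at 4.35, 6.90 and 3.44 FPKM in Model, against 0.411, 1.17 and 0.521 FPKM in Blank. Every Model library lay above every Blank library, with a log2 fold change of 2.73 ± 0.42 (SE; by edgeR, adjusted p = 0.00148) and of 3.34 without Blank 2. Against Blank 1 alone it was 3.50. Blank 2, the Blank library with the highest Cldn1, was also the library with the highest sum of prostate markers. The part of those transcripts in Cldn1 was not tested. The 12 markers of squamous epithelium, another tissue that makes Cldn1, summed to 3.16, 2.75 and 5.13 FPKM in CDs, 1.51, 2.72 and 1.02 FPKM in Model, and 1.26, 3.73 and 2.48 FPKM in Blank, with 3 to 5 of them at 0 in each library. Only 4 of the 12 had enough reads to be tested. Krt14, a basal keratin, was called higher in CDs than in Blank (1.99 ± 0.60, SE; edgeR adjusted p = 0.0310), and Krt15 was called lower in Model than in Blank (-2.44 ± 0.77; 0.0313). The part of squamous cells in Cldn1 was not tested. Neutrophil markers summed to 463 to 3870 FPKM in Model, against 76.9 to 93.0 FPKM in Blank, and all 7 were called higher; their part in Cldn1 was not tested.

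Cldn5 was not called in Model, although endothelial markers rose. It was at 5.59, 6.94 and 5.90 FPKM in Model, against 2.24, 2.94 and 4.28 FPKM in Blank. The groups did not overlap, and the log2 fold change was 0.91 ± 0.33 (SE; edgeR adjusted p = 0.0517). It was called without Blank 3 (edgeR adjusted p = 0.0378), CDs 1 (0.0129) or CDs 2 (0.0497). All 17 endothelial markers were called higher in Model, with a median log2 fold change of 1.47, and their sum was 177 to 255 FPKM in Model, against 78.1 to 82.2 FPKM in Blank. Cdh5, the cadherin of endothelial junctions, had a log2 fold change of 1.64 ± 0.16 (SE; by edgeR, adjusted p = 3.04e-04). Per 1000 FPKM of these markers, Cldn5 averaged 27.9 ± 3.36 FPKM in Model and 39.1 ± 12.6 FPKM in Blank (SD, n = 3 each), with overlapping ranges.

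**Figure D2:**
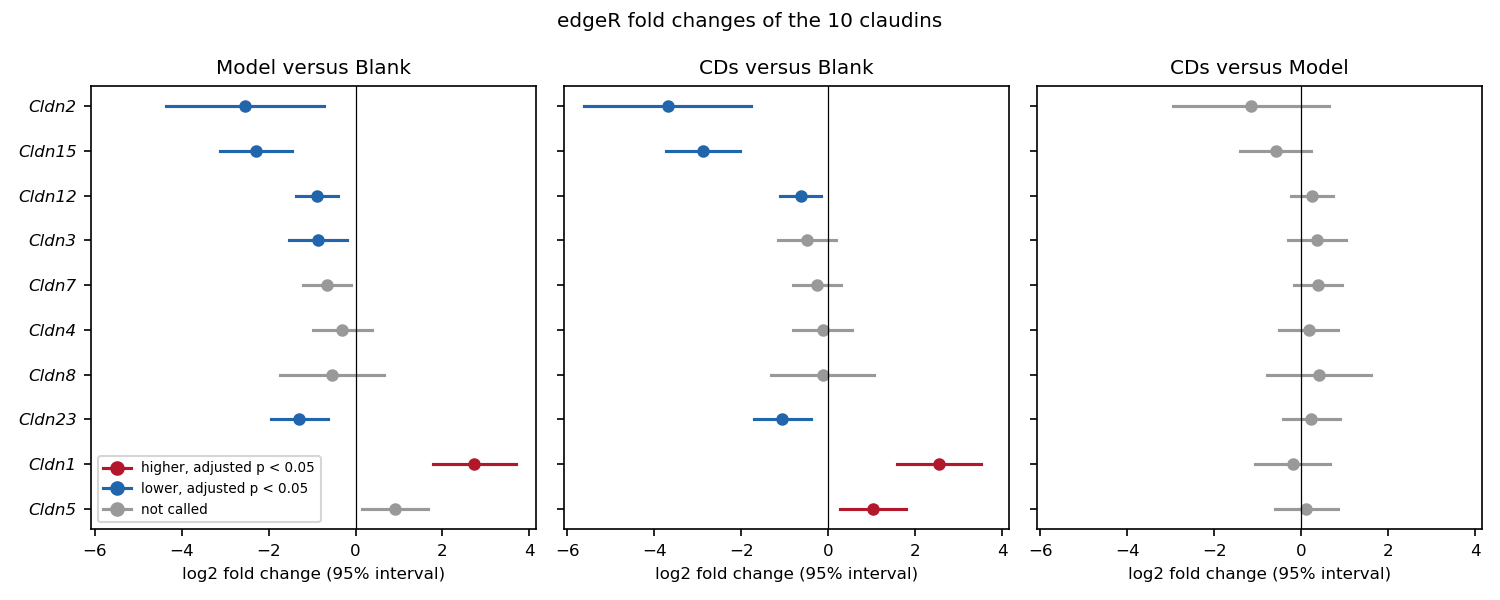
Log2 fold change of each claudin (x axis) in the 3 comparisons, with points for the edgeR estimate and lines for its 95% interval; red and blue mark adjusted p under 0.05 and grey no call. In both comparisons with Blank the intervals of Cldn2, Cldn12, Cldn15 and Cldn23 lie wholly below 0 and those of Cldn1 and Cldn5 wholly above. The intervals are not adjusted for the number of genes tested. In Model versus Blank those of Cldn5 and Cldn7 exclude 0 without a call. In CDs versus Model every interval spans 0.

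The claudin pool as a whole was smaller in DSS-treated colon and held less of the channel-forming members. The summed level of the 10 members was 314, 443 and 492 FPKM in CDs 1, CDs 2 and CDs 3, 463, 266 and 271 FPKM in Model 1, Model 2 and Model 3, and 606, 547 and 591 FPKM in Blank 1, Blank 2 and Blank 3. Cldn2 and Cldn15 together made up 2.87% ± 1.80 of the summed FPKM of the 9 epithelial members in CDs, 5.63% ± 3.05 in Model and 17.3% ± 1.37 in Blank (SD, n = 3 each). The highest DSS library, Model 3, reached 8.14%, against 15.8% in the lowest Blank library. Cldn7, Cldn3 and Cldn8 made up 83.1% ± 4.68 of the pool in CDs, 78.6% ± 2.69 in Model and 70.2% ± 2.05 in Blank (SD, n = 3 each). The share of Cldn3 alone was 25.1% ± 2.87 in CDs, 24.4% ± 0.391 in Model and 24.3% ± 1.06 in Blank (SD, n = 3 each). These sums and shares are descriptions with no test, because the members were chosen with results of these data known.

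**Figure D3:**
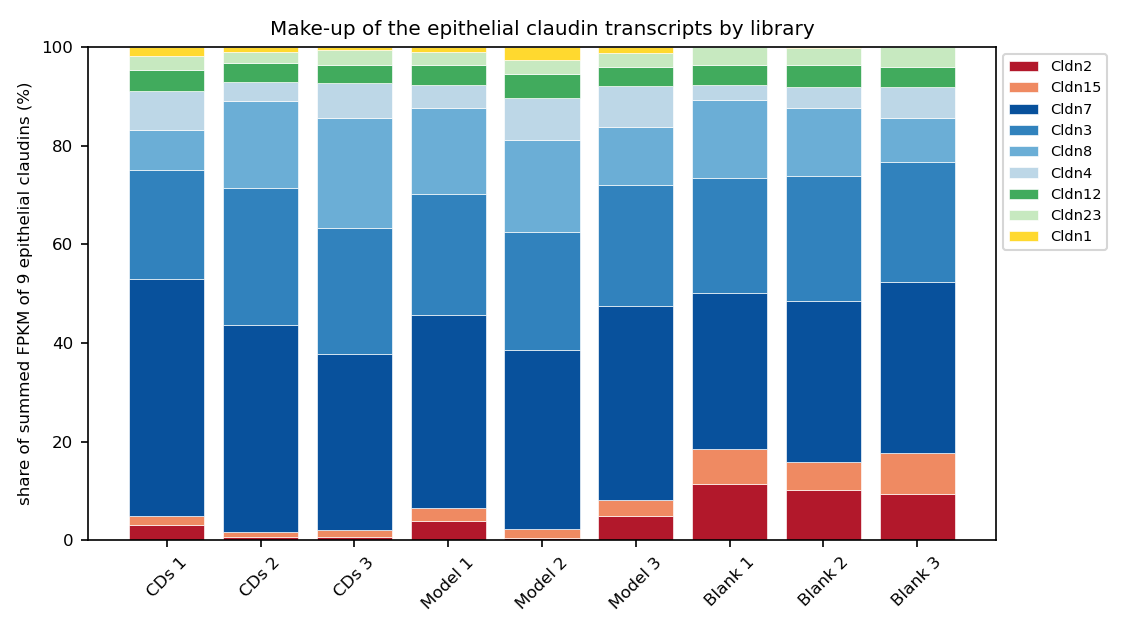
Share of each of 9 epithelial claudins in their summed FPKM (y axis, percent) in each library (x axis; CDs, Model and Blank). The 2 red bands at the bottom, Cldn2 and Cldn15, take 15.8% or more in each Blank library and at most 8.14% in the 6 DSS libraries.

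The epithelial markers fell with several members, so each epithelial claudin was also set per 1000 FPKM of the 14 summed markers. The markers had a median log2 fold change of -0.74 in Model versus Blank, 5 of 14 being called lower and none higher. On this scale Cldn3 was at 20.5 ± 2.62 FPKM in Model and 22.8 ± 1.51 FPKM in Blank, and Cldn7 at 32.2 ± 4.91 FPKM in Model and 31.0 ± 1.04 FPKM in Blank (SD, n = 3 each), with overlapping ranges. Cldn4 was at 5.97 ± 1.63 FPKM in Model and 4.22 ± 1.45 FPKM in Blank (SD, n = 3 each). Cldn8 was at 13.2 ± 2.31 FPKM in Model and 12.0 ± 3.57 FPKM in Blank (SD, n = 3 each). Ranges of both overlapped, and their log2 ratios of 0.52 and 0.17 were opposite in sign to their edgeR log2 fold changes. Cldn12 was at 3.50 ± 0.0763 FPKM in Model and 3.91 ± 0.335 FPKM in Blank (SD, n = 3 each). Cldn2 was still far apart, at 2.70 ± 2.10 FPKM in Model and 9.70 ± 1.20 FPKM in Blank, as was Cldn15 at 2.22 ± 0.878 FPKM in Model and 6.52 ± 1.09 FPKM in Blank (SD, n = 3 each). Cldn23 stood at 2.33 ± 0.222 FPKM in Model and 3.48 ± 0.156 FPKM in Blank, and Cldn1 at 1.32 ± 0.568 FPKM in Model and 0.118 ± 0.0790 FPKM in Blank (SD, n = 3 each). Ranges did not overlap for Cldn1, Cldn2, Cldn15 and Cldn23. For Cldn12 they were only narrowly apart, at 3.41 to 3.55 FPKM in Model and 3.64 to 4.28 FPKM in Blank. On plain FPKM 58.7% of all genes had ranges of Model and Blank that did not overlap, and that share was not computed per marker sum. The scale per marker sum was added after the data were seen and carries no test.

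**Figure D4:**
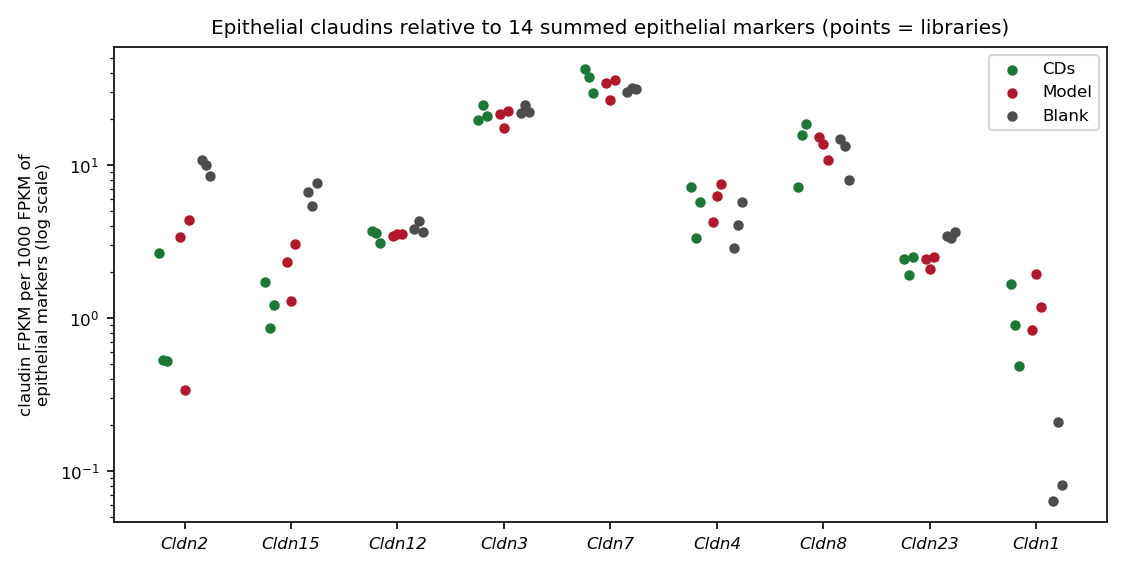
Level of 9 claudins per 1000 FPKM of 14 summed epithelial markers (y axis, log scale) in each library (points, coloured by group: CDs, Model and Blank). Cldn3 and Cldn7 lie at a like height in all groups, whereas Cldn2, Cldn15 and Cldn23 lie lower and Cldn1 higher in the DSS libraries than in Blank.

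CDs and Model differ by the carbon dots, and the comparison asks whether any claudin differed with them. No member was called by edgeR, none had an unadjusted p under 0.05 and the smallest adjusted p was 0.936. The share called over all genes was 0%, with 5.28% at an unadjusted p under 0.05, and DESeq2 called 5 genes higher and 45 lower, none of them a member. No member had groups that did not overlap, beside 6.82% of all genes. The members' median log2 fold change was 0.20, beside 0.02 over all genes and 0.25 over the 14 epithelial markers.

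Among the channel-forming members, Cldn2 was at 9.32, 2.59 and 3.08 FPKM in CDs, against 17.7, 1.21 and 12.7 FPKM in Model. Its log2 fold change was -1.16, and the 95% interval of -2.94 to 0.63 leaves a wide range of sizes in both directions. Cldn15 was at 5.97, 4.19 and 7.19 FPKM in CDs, against 12.1, 4.58 and 8.88 FPKM in Model, with an interval of -1.41 to 0.24. With CDs 1, Model 1 and Model 3 set aside, both signs turned, to 1.32 for Cldn2 and 0.40 for Cldn15. Cldn3, Cldn7 and Cldn12 then had log2 fold changes of 1.07, 1.01 and 0.59. That fit sets CDs 2 and CDs 3 against the single library Model 2 and takes its spread from the other groups, so only sizes are given. Among all libraries Model 2 had the lowest summed claudin level, 266 FPKM, and the highest sum of neutrophil markers, 3870 FPKM.

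**Figure D5:**
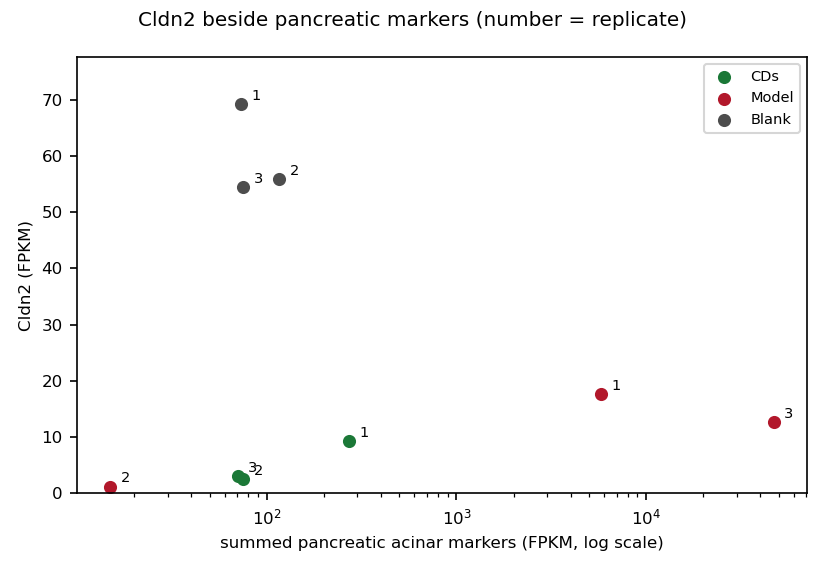
Cldn2 (y axis, FPKM) against summed pancreatic acinar markers (x axis, FPKM, log scale); points are libraries of CDs, Model and Blank with their replicate number. Among the 6 DSS libraries Cldn2 is highest in Model 1, Model 3 and CDs 1, the 3 with acinar markers above 200 FPKM, and all 6 lie below the Blank libraries.

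The abundant members Cldn7, Cldn3 and Cldn8 had positive fold changes that did not pass the test. The 14 epithelial markers also had a positive median log2 fold change in CDs versus Model, 0.25. Per 1000 FPKM of their sum, the log2 ratios were 0.18 for Cldn7, 0.09 for Cldn3 and -0.03 for Cldn8, with overlapping ranges. The part of the epithelial markers in these values was not tested. Cldn7 was at 149, 183 and 173 FPKM in CDs, against 179, 94.2 and 104 FPKM in Model, a log2 fold change of 0.40 with a 95% interval of -0.16 to 0.95. Cldn3 was at 68.6, 121 and 123 FPKM in CDs, against 112, 62.0 and 65.4 FPKM in Model, with an interval of -0.30 to 1.04. In both genes CDs 1 was the lowest CDs library and Model 1 the highest Model library. Cldn8 spread most, at 25.1, 76.7 and 108 FPKM in CDs, against 79.7, 48.3 and 31.4 FPKM in Model, with an interval of -0.78 to 1.60.

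The remaining members also had overlapping ranges in CDs and Model. Cldn4 was at 24.9, 16.3 and 33.9 FPKM in CDs around the even Model values of 22.0, 22.1 and 21.8 FPKM. Cldn12 was at 13.0, 17.4 and 18.1 FPKM in CDs, against 17.8, 12.5 and 10.4 FPKM in Model, and Cldn23 at 8.55, 9.25 and 14.7 FPKM in CDs, against 12.7, 7.38 and 7.28 FPKM in Model. Cldn1 was at 5.87, 4.40 and 2.84 FPKM in CDs, against 4.35, 6.90 and 3.44 FPKM in Model, with a 95% interval of the log2 fold change of -1.05 to 0.67. Cldn5 was at 4.01, 8.88 and 7.23 FPKM in CDs, against 5.59, 6.94 and 5.90 FPKM in Model. The intervals were -0.51 to 0.85 for Cldn4, -0.24 to 0.72 for Cldn12, -0.42 to 0.89 for Cldn23 and -0.61 to 0.85 for Cldn5.

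Set against Blank, the CDs group had 4 members called lower and 2 higher, beside 13.8% and 21.8% of all genes (35.6% in either direction). Ranges of CDs and Blank did not overlap for 6 members and for 51.4% of all genes, and 6 members and 47.1% of all genes had an unadjusted p under 0.05. Against Blank 1 alone, with the spread taken from the other groups, only Cldn15 was called lower and only Cldn1 higher among the members. Both comparisons with Blank share the same control libraries. Cldn15 and Cldn2 were lowest, with log2 fold changes of -2.89 ± 0.38 (SE; edgeR adjusted p = 0.00101) and -3.69 ± 0.85 (SE; edgeR adjusted p = 0.0105), the last at -4.44 without CDs 1. Cldn23 had a log2 fold change of -1.06 ± 0.29 (SE; by edgeR, adjusted p = 0.0214), a call lost without Blank 1 (adjusted p = 0.0570), Blank 3 (0.0619), CDs 1 (0.0571) or CDs 2 (0.0760). Cldn12 had -0.64 ± 0.21 (SE; edgeR adjusted p = 0.0436), and its call was lost without Blank 1 (0.0999), Blank 2 (0.103), Blank 3 (0.0829), CDs 1 (0.106) or CDs 2 (0.0777). Cldn1 rose, at 2.54 ± 0.42 (SE; edgeR adjusted p = 0.00264), and at 3.15 without Blank 2. Cldn5 was called higher at 1.03 ± 0.33 (SE; edgeR adjusted p = 0.0394), although CDs 1 at 4.01 FPKM lay below Blank 3 at 4.28 FPKM. All 17 endothelial markers were called higher as well, and per 1000 FPKM of their sum the direction turned: Cldn5 averaged 32.6 ± 12.3 FPKM in CDs and 39.1 ± 12.6 FPKM in Blank (SD, n = 3 each), a log2 ratio of -0.30 with overlapping ranges. Its adjusted p was 0.120 without Blank 1, 0.109 without Blank 2, 0.0509 without Model 2, 0.0585 without Model 3, 0.139 without CDs 2 and 0.0870 without CDs 3. Cldn3 (-0.49), Cldn7 (-0.26), Cldn4 (-0.13) and Cldn8 (-0.13) were not called.

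Of the claudins outside the 10 members, Cldn10, Cldn14 and Cldn34c1 had enough reads to be tested. Cldn10, an ion channel claudin that the pancreas also makes, had 21, 32 and 9 reads in CDs 1, CDs 2 and CDs 3, 12, 27 and 55 reads in Model 1, Model 2 and Model 3, and 2, 8 and 8 reads in Blank. It was called higher in Model than in Blank, with a log2 fold change of 2.20 ± 0.71 (SE, by edgeR, adjusted p = 0.0344). Cldn10 was highest in Model 3, the library with the most acinar transcripts. Model 1, with 5786 FPKM of acinar markers, had fewer Cldn10 reads than Model 2 and CDs 2, with 15.0 and 75.3 FPKM of them. The part of pancreatic transcripts in Cldn10 was not tested. Cldn34c1 was also called higher in Model than in Blank (1.33 ± 0.35, SE, edgeR adjusted p = 0.0155) at a mean of 0.309 FPKM in Model and 0.118 FPKM in Blank, and Cldn14 was not called.

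Other junction genes differed between Model and Blank in both directions. Of 12 genes of tight junction strands and tricellular contacts 5 were called lower and 3 higher, with a median log2 fold change of -0.39. Among those that fell were occludin, Ocln (-1.18 ± 0.33, SE; edgeR adjusted p = 0.0194), tricellulin, Marveld2 (-1.10 ± 0.27; 0.0116), and angulin-1, Lsr (-1.53 ± 0.20; 7.49e-04). The adhesion molecule Jam2, known also from endothelium, rose (1.23 ± 0.18, SE; edgeR adjusted p = 0.00109). Of 17 plaque and polarity genes 8 fell and 3 rose, with a median of -0.70, among them the polarity kinase Prkci (-0.87 ± 0.16, SE; edgeR adjusted p = 0.00284) and the scaffold Mpdz (1.38 ± 0.17; 6.05e-04). Of 16 adherens junction and desmosome genes 6 fell and none rose, with a median of -0.46, including desmoplakin, Dsp (-0.83 ± 0.22, SE; edgeR adjusted p = 0.0154). All these counts stand beside 19.6% lower and 24.5% higher over all genes, and the medians beside -0.74 for the 14 epithelial markers. The part of that wider epithelial fall in the junction genes was not tested. In CDs versus Model no gene of these lists was called.

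Genes known to act on claudins were taken as 3 further lists, whose counts also stand beside 24.5% higher and 19.6% lower over all genes in Model versus Blank. Of 14 partners and proteases 4 fell and 2 rose in Model versus Blank, with a median log2 fold change of -0.43. Epcam of this list, and Cdx1, Cdx2 and Elf3 of the next, are also among the 14 epithelial markers, whose median was -0.74. The part of that wider epithelial fall in their values was not tested. Epcam, which binds and stabilises Cldn7, averaged 398 ± 128 FPKM in Model and 645 ± 38.7 FPKM in Blank (SD, n = 3 each), and its log2 fold change came to -0.74 ± 0.23 (SE; edgeR adjusted p = 0.0308), and the protease Prss8 had -1.03 ± 0.22 (0.00677). Of 18 transcription factors that act on claudin genes 10 fell and 5 rose, with a median of -0.83. Cdx2, an intestinal factor known to activate Cldn2, averaged 15.0 ± 5.61 FPKM in Model and 49.8 ± 19.7 FPKM in Blank (SD, n = 3 each), and its log2 fold change came to -1.78 ± 0.39 (SE; edgeR adjusted p = 0.00692). Snai1, which represses claudin genes in epithelial cells, had 2.45 ± 0.37 (SE; edgeR adjusted p = 0.00137) and Stat3 1.15 ± 0.12 (3.38e-04); both are also made by stromal and immune cells. Of 16 cytokines and receptors 12 rose and 1 fell, with a median of 1.78, among them the interleukin 6 receptor subunits Il6ra (1.27 ± 0.15, SE; edgeR adjusted p = 5.20e-04) and Il6st (1.91 ± 0.16; 2.33e-04). Interleukin 6 and interleukin 22 are known to raise Cldn2 in cultured epithelium. Il6 averaged 6.96 ± 3.82 FPKM in CDs, 15.8 ± 9.08 FPKM in Model and 0.0451 ± 0.0134 FPKM in Blank (SD, n = 3 each). It was called higher in Model versus Blank, where Cldn2 fell (edgeR adjusted p = 3.14e-04), and its low level in Blank leaves the size of that fold loosely fixed. In CDs versus Model its log2 fold change was -1.22 ± 0.49 (SE; edgeR adjusted p = 0.936). Il22 averaged 8.13 ± 8.30 FPKM in CDs and 1.89 ± 0.260 FPKM in Model (SD, n = 3 each), with a log2 fold change of 2.03 ± 0.81 in CDs versus Model (SE; edgeR adjusted p = 0.936), and no gene of the 3 lists was called there. Of 16 cytokines and receptors 12 were called higher and none lower in CDs versus Blank, beside 21.8% higher and 13.8% lower over all genes.

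The genes whose profile over the 9 libraries lay nearest to each member were listed by the root mean square difference between mean-centred log2 CPM values, among genes at 5 FPKM or more in at least 1 group. Nearest to Cldn2 were Nox1, an epithelial NADPH oxidase (a difference of 0.68), and Gsta3, a glutathione transferase (0.86), beside a spread of Cldn2 itself of 2.03. Cldn15 was followed by Slc12a8 (0.33) and Baiap2l2 (0.34), with an own spread of 1.33. For Cldn1 they were Gfpt2 (0.37) and Lbp (0.38), beside an own spread of 1.36. Closer matches were found for the members that varied less: Myo6 at 0.0568 and Slc25a5 at 0.0684 for Cldn12, Phlpp2 at 0.0637 and Tspan1 at 0.0784 for Cldn3, Misp at 0.0876 and Adtrp at 0.0940 for Cldn7, and Camsap3 at 0.10 and Strbp at 0.11 for Cldn23. The nearest genes to Cldn4 were Plk3 (0.21) and Nipal1 (0.25), and to Cldn8 Il18 (0.23) and Slc25a34 (0.28). Cldn5 lay nearest to Slc2a4 (0.16) and Ppp1r14a (0.20), neither of them among the 17 endothelial markers. The points share libraries and groups, so these values describe likeness in these samples only.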

How the data were processed

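RNA of 9 colon libraries was analysed from 1 table of 21959 genes. Its values are raw read counts and FPKM, per the file headers. The submitters' processing notes list HTSeq 0.9.1, HISAT2 2.1.0 and fastp 0.22.0. Genome build and strand setting: not given in the sources used here. No member overlapped another gene of the table. The FPKM deposited by the authors equalled the count divided by gene length and library total in 100% of values (relative tolerance 1e-06).

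Counts were tested with edgeR 4.0.16 in R 4.3.3 (quasi-likelihood F test, TMM scaling, expression filter), fitted jointly to the 9 libraries with a coefficient for each group, and p-values were adjusted by Benjamini and Hochberg over 14921 genes. Standard errors are the log2 fold change over the root of F, and 95% intervals use the fit's degrees of freedom. The fit was tested on simulated data. Alternatives used DESeq2 1.42.0, limma 3.58.1 on log2(FPKM + 1), other scalings and left-out libraries. All members are named; of each list, the 6 genes ranking first by p in Model versus Blank and 2 in CDs versus Model could be named. The members and lists were chosen with earlier results of these data known. Replicates are called biological in the series description. The planned permutation tests of the summed FPKM and of the channel-forming share are not given, since they would test a score over chosen members. Counting error limits low members most. A marker list holding a gene withheld from the text is not reported here.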

Additional observations from a re-analysis of the deposited data

How the results depend on the processing

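Among the 10 members, the numbers called in Model versus Blank were 1 higher and 5 lower. With the replicate number as a block 2 were higher (Cldn5 gained) and Cldn3 was lost (-0.87, edgeR adjusted p = 0.0826), and Cldn12 lost its call in CDs versus Blank (edgeR adjusted p = 0.0896). Deviations from the group means correlated at -0.37 to 0.21 between same-numbered libraries and at -0.35 to 0.47 between the others. In CDs versus Blank all same-numbered correlations were positive (0.17, 0.12 and 0.063). With deviations taken within groups of 3, these values cannot settle whether the numbers pair libraries. The fit of 6 libraries, RLE factors, DESeq2 and limma each gave 2 higher, and the fit of 6 gave 1 higher in CDs versus Blank. Leaving out 1 library gave 1 to 2 higher and 3 to 6 lower in Model versus Blank, and 1 to 2 higher and 2 to 4 lower in CDs versus Blank. Without the 3 libraries with pancreatic transcripts Model 2 was the only Model library, so only sizes are given. In CDs versus Model Cldn2 turned to 1.32 and Cldn15 to 0.40, and in CDs versus Blank Cldn8 turned to 0.29. Without Blank 2 and Blank 3, 1 was lower in each comparison with Blank and 1 higher in CDs versus Blank; Cldn4 turned to 0.20 in Model and 0.37 in CDs, and all genes called were 1218 higher and 318 lower in Model and 357 and 108 in CDs; Blank 1 was then the only Blank library, with the spread taken from the other groups. Uncalled values turned with single libraries left out: -0.49 to 0.040 for Cldn4 in Model versus Blank, -0.45 to 0.21 for Cldn4 and -0.62 to 0.29 for Cldn8 in CDs versus Blank, and in CDs versus Model -0.41 to 0.10 for Cldn1, -0.080 to 0.56 for Cldn23, -0.15 to 0.40 for Cldn4, -0.14 to 0.41 for Cldn5 and -0.085 to 0.84 for Cldn8. All genes called lower ranged from 1478 to 3561 in Model versus Blank and from 1074 to 2229 in CDs versus Blank. Relative to endothelial markers Cldn5 turned to -0.30 in CDs versus Blank. The channel-forming share differed by -15.9 (Model) and -19.8 (CDs) percentage points from Blank in CPM and by -16.7 and -20.7 without Cldn7; other units and denominators set these sizes. The cause of each change was not tested.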
